A study of Capra hircus with 9 samples.

Results

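miR-423 and miR-345 are microRNA (miRNA) hairpins whose mature arms were counted in goat mammary gland at the ends of the lactation cycle. The members are the rows of the deposited count table whose names start with chi-miR-423- or chi-miR-345-, where chi stands for Capra hircus. This rule found 4 of the 1359 mature miRNAs listed, namely the 5p and 3p arms of chi-miR-423 and those of chi-miR-345, and all 4 were among the 696 miRNAs abundant enough to be tested. Tissue came from healthy Laoshan dairy goats of parity 3 with a mean age of 4 years, kept on 1 farm, with no treatment or genetic change in any group. The groups were late lactation (LL, 240 days postpartum, n = 3), the dry period (DP, 300 days postpartum, n = 3) and late gestation (LG, 140 days after mating, n = 3), each library standing for a different goat. The tissue was whole gland, so that a lower level from fewer cells of one type and one from less RNA per cell cannot be told apart.

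A miRNA hairpin is cut into a duplex of a 5p and a 3p arm, and either arm can be loaded into an Argonaute protein, where it guides repression of messenger RNAs that pair with its seed. The arm that is not loaded is usually degraded, so the ratio of 3p to 5p reads describes which arm accumulates, while a change of both arms by the same factor describes the hairpin as a whole. miR-423 is found in most tissues, its 5p arm is often used as a reference in RT-qPCR, and the study followed chi-miR-423-3p as a regulator of IGF1R, the receptor of insulin-like growth factor 1, which drives growth and survival of mammary epithelial cells. Since the study picked chi-miR-423-3p, and with it the 3p arm of miR-345, with their levels in these libraries known, their direction here is not independent evidence. Separately, the study tested chi-miR-423-3p on IGF1R in cultured mammary epithelial cells with a mimic, a luciferase reporter and Western blots. Those assays lie outside these libraries.

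The RT-qPCR primers that the study designed for both 3p arms are shown because they mark the strand the study went on to measure. All are DNA written 5′ to 3′, and the capitals mark the letters after the T run of each reverse primer.
chi-miR-423-3p forward: gcagagctcggtctgag
chi-miR-423-3p reverse: ggtccagtttttttttttttttACTGA
chi-miR-345-3p forward: gccctgaactaggggtct
chi-miR-345-3p reverse: ccagtttttttttttttttCCTCCA
These end letters number 5 in the reverse primer for chi-miR-423-3p and 6 in that for chi-miR-345-3p, and the 5p arms had no such primers in the table read here. In the goat RefSeq annotation (build ARS1.2), MIR423 is at chr19:21058372-21058491, spanning 120 bases within NSRP1, a gene of a splicing regulator, 301 bases from that gene's lower coordinate. MIR345 is at chr21:64495202-64495302, spanning 101 bases outside any annotated gene, 1393 bases from SLC25A29, which encodes a mitochondrial carrier. The annotation table gives no exons, so exon or intron is not stated. It lists 0 other miRNA genes within 10 kb of either hairpin, so neither has a listed close cluster partner.

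Libraries held between 13672653 and 34378995 counts, and levels are given as CPM (counts per fixed library total, here scaled by TMM). TMM is a normalisation that assumes most miRNAs are steady between libraries. A differentially expressed miRNA (DE-miRNA) had a Benjamini-Hochberg adjusted p below 0.05 in edgeR's quasi-likelihood test over all 696 miRNAs and a log2 fold change beyond 1 in either direction. The median log2 fold change of all tested miRNAs was 0.18 (DP vs. LG), 0.12 (DP vs. LL) or 0.17 (LL vs. LG). These values were taken after TMM scaling, which brings the bulk of miRNAs near 0, so they do not check its assumption. Both DP comparisons share the DP libraries, and each of the other stages also enters 2 comparisons.

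chi-miR-423-3p was lower in DP than in either other stage. Its counts were 18862, 29849 and 29592 in LL, 7958, 9140 and 13472 in DP, and 42986, 38260 and 51423 in LG. In CPM these were 1480, 1972 and 1597 in LL, 500, 420 and 587 in DP, and 1474, 1511 and 1165 in LG. Every DP library therefore lay below every LL and LG library, whereas LL and LG overlapped. Mean levels were 1683 ± 257 CPM in LL, 502 ± 83.7 CPM in DP and 1383 ± 190 CPM in LG (SD, n = 3). In DP vs. LG, chi-miR-423-3p fell by 1.46 on the log2 scale (SE 0.22, edgeR adjusted p = 0.000825), a level 2.75-fold lower. In DP vs. LL it fell by 1.74 on the log2 scale (SE 0.23, edgeR adjusted p = 0.000386), a level 3.35-fold lower. The log2 difference in LL vs. LG was 0.28 (SE 0.22, edgeR adjusted p = 0.417).

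Of the 4 members, 3 were DE-miRNAs lower in DP vs. LG, against 9.91% of all tested miRNAs, and the same 3 members were lower in DP vs. LL, against 11.6% of all tested. As 2 of these 3 were picked by the study on libraries that include these, the count supports nothing by itself. Between LL and LG 0 of the 4 members passed edgeR's limits, against 12.8% of all tested called in either direction (89 miRNAs, with 141 in a fit of these 2 stages alone and 33 to 125 without 1 library), and 0 of the 4 passed with DESeq2 or limma-voom. At an unadjusted p below 0.05, 1 of the 4 did so in LL vs. LG, chi-miR-423-5p, against 33.0% of all tested. Libraries of the compared stages did not overlap for 44.7% of all tested miRNAs in DP vs. LG. The share was 41.2% in DP vs. LL, against 48.4% between LL and LG, so a gap between 3 and 3 libraries was common in this table.

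chi-miR-423-5p, cut from the same hairpin, was high in LL and close together in DP and LG. Counts were 11393, 14186 and 17357 in LL, 9146, 10086 and 10324 in DP, and 19166, 15767 and 20758 in LG. Scaled levels were 894, 937 and 937 CPM in LL, 574, 464 and 450 CPM in DP, and 657, 623 and 470 CPM in LG. DP and LG overlapped through LG replicate 3, and the LL libraries lay above all others. The means were 923 ± 24.8 CPM in LL, 496 ± 68.0 CPM in DP and 583 ± 99.5 CPM in LG (SD, n = 3). Its log2 difference in DP vs. LG was −0.23 (SE 0.21, edgeR adjusted p = 0.444), with a 95% interval from −0.70 to 0.23. That interval leaves out the size of the fall of its partner arm, although other scalings and filters gave differences from −0.61 to −0.23. With at least 10 counts required in every library the difference was −0.61 and passed the limit on p (adjusted p = 0.0415) but not that on fold change. In DP vs. LL the log2 difference was −0.90 (SE 0.21, edgeR adjusted p = 0.0101), which passed the limit on p but not that on fold change, and without DP replicate 1 it was −1.13 and passed both. The limit on p was missed where libraries were scaled by total counts alone (−0.52, adjusted p = 0.133) and without LL replicate 1 (−0.84, adjusted p = 0.0525). The LL vs. LG difference was 0.66 (SE 0.21, edgeR adjusted p = 0.0568). It passed the limit on p, but not that on fold change, with limma-voom (0.68, adjusted p = 0.0484) and without DP replicate 1 (0.59, edgeR adjusted p = 0.0418). The LL and LG libraries were separated by a gap in TMM-scaled levels. That gap rested on the scaling, since by total counts alone LL (666, 862 and 705 CPM) and LG (753, 740 and 604 CPM) overlapped, with a log2 difference of 0.09 (adjusted p = 0.816), and without LG replicate 3 the difference was 0.31.

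**Figure D1:**
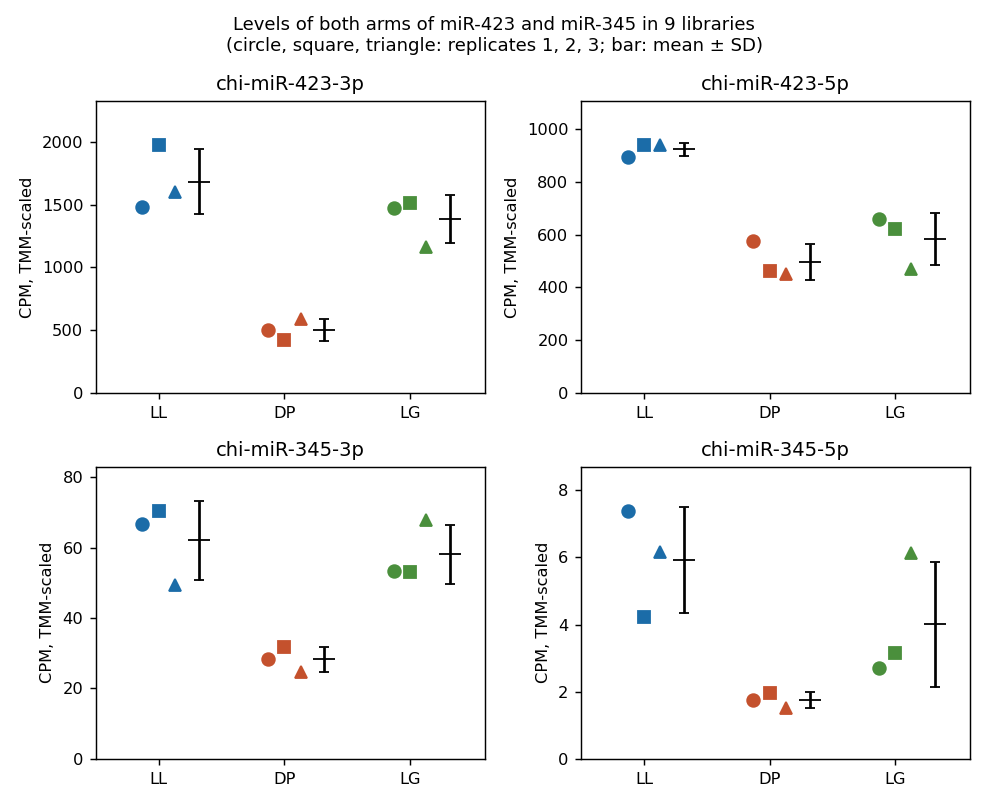
Levels of the 4 mature arms in CPM scaled by TMM (vertical axes, each from 0) in LL, DP and LG, with one point per library and a bar for the mean ± SD (n = 3). The DP libraries lie below all others for both arms of miR-345 and for chi-miR-423-3p, while those of chi-miR-423-5p (450 to 574 CPM) overlap LG (470 to 657 CPM).

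The arm ratio, which no scaling between libraries can alter, showed the same split within the miR-423 hairpin. The 3p to 5p count ratio was 1.66, 2.10 and 1.70 in LL, 0.870, 0.906 and 1.30 in DP, and 2.24, 2.43 and 2.48 in LG. The 3p arm was thus the more abundant arm in all LL and LG libraries and in DP replicate 3, and the 5p arm was the more abundant in DP replicates 1 and 2. The mean ratio was 1.82 ± 0.246 in LL, 1.03 ± 0.241 in DP and 2.38 ± 0.123 in LG (SD, n = 3). As a share of both arms, the 3p arm made up 64.4% ± 2.96 in LL, 50.2% ± 5.55 in DP and 70.4% ± 1.1 in LG (SD, n = 3). The DP shares were 46.5% (95% Wilson interval 45.8 to 47.3), 47.5% (46.8 to 48.2) and 56.6% (56.0 to 57.2), so the gap between DP replicate 3 and the other DP goats was far wider than the counting error. Such intervals cover counting error only.

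The ratio was tested on the paired counts of both arms for the 129 hairpins with both arms tested, with the library as a block, and a change was called at an adjusted p below 0.05. In DP vs. LG the 3p to 5p ratio of miR-423 fell by 1.24 on the log2 scale (SE 0.23, edgeR adjusted p = 0.00533), with a 95% interval from −1.74 to −0.73. It fell by 0.84 in DP vs. LL (SE 0.23, edgeR adjusted p = 0.0253), and that call was lost without LL replicate 2 (change −0.74, adjusted p = 0.0855) or without LL replicate 3 (change −0.89, adjusted p = 0.0666), and in a fit of these 2 stages alone (adjusted p = 0.0697). Between LL and LG the change was −0.39 (SE 0.23, edgeR adjusted p = 0.536), although all 3 LL ratios lay below all 3 LG ratios. An exact permutation test (two-sided) of the mean log2 ratio gave p = 0.1 for each pair of stages, the smallest p that 3 against 3 libraries allow. Over the 3 stages together the exact permutation p was 0.00357, again the smallest that the 280 splits allow. After Benjamini-Hochberg adjustment over the 12 exact tests of arm ratios made here it was 0.0429. As the study picked the 3p arm with its low level in DP known, a low ratio in DP is partly given by that choice, and these tests are not independent evidence of its direction.

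**Figure D2:**
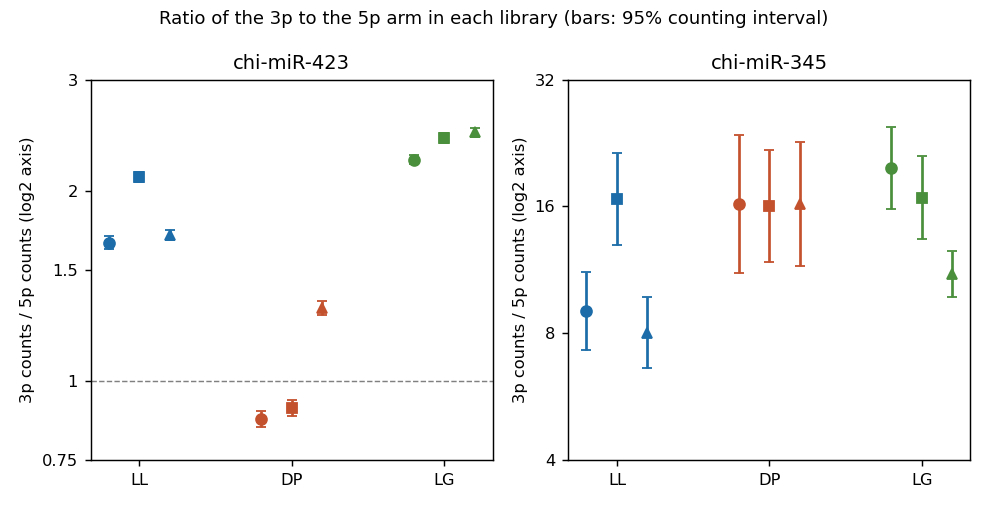
Ratio of 3p to 5p counts on a log2 axis in each library for miR-423 (left, with a dashed line at 1, where both arms are equally abundant) and miR-345 (right, a different range), with circles, squares and triangles for replicates 1, 2 and 3 and bars for the 95% counting interval. For miR-423 the DP ratios (0.870 to 1.30) lie below all LL and LG ratios (1.66 to 2.48), and for miR-345 the stages overlap (8.03 to 19.7).

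Both arms of miR-345 were lower in DP. chi-miR-345-3p, its main arm, had 850, 1065 and 915 counts in LL, 454, 690 and 567 in DP, and 1559, 1344 and 2995 in LG. In CPM it reached 66.7, 70.4 and 49.4 in LL, 28.5, 31.7 and 24.7 in DP, and 53.5, 53.1 and 67.9 in LG. The DP libraries lay below all others, and LL and LG overlapped. The means were 62.2 ± 11.2 CPM in LL, 28.3 ± 3.50 CPM in DP and 58.1 ± 8.42 CPM in LG (SD, n = 3). chi-miR-345-3p fell by 1.04 on the log2 scale in DP vs. LG (SE 0.26, edgeR adjusted p = 0.0104) and by 1.13 in DP vs. LL (SE 0.26, edgeR adjusted p = 0.00841). The second call was lost where libraries were scaled by total counts alone (log2 difference −0.78, adjusted p = 0.0665). The log2 difference in LL vs. LG was 0.10 (SE 0.25, edgeR adjusted p = 0.859).

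chi-miR-345-5p was the rare arm and the least certain of the members. It had 94, 64 and 114 counts in LL, 28, 43 and 35 in DP, and 79, 80 and 271 in LG. LG replicate 3 stood above the other LG libraries, and the DP libraries were again the lowest. Mean levels were 5.92 ± 1.59 CPM in LL, 1.75 ± 0.225 CPM in DP and 4.0 ± 1.86 CPM in LG (SD, n = 3). In DP vs. LL chi-miR-345-5p fell by 1.75 on the log2 scale (SE 0.41, edgeR adjusted p = 0.00909). In DP vs. LG it fell by 1.19 (SE 0.40, edgeR adjusted p = 0.0392), a call that was lost without DP replicate 3 (adjusted p = 0.0560) or LG replicate 3 (−0.92, adjusted p = 0.117), with limma-voom (adjusted p = 0.0530) and in a fit of the 2 stages alone (adjusted p = 0.0689). For LL vs. LG the log2 difference was 0.56 (SE 0.39, edgeR adjusted p = 0.355), and leaving out 1 library gave 0.16 (without LL replicate 1) to 0.81 (without LG replicate 3).

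**Figure D3:**
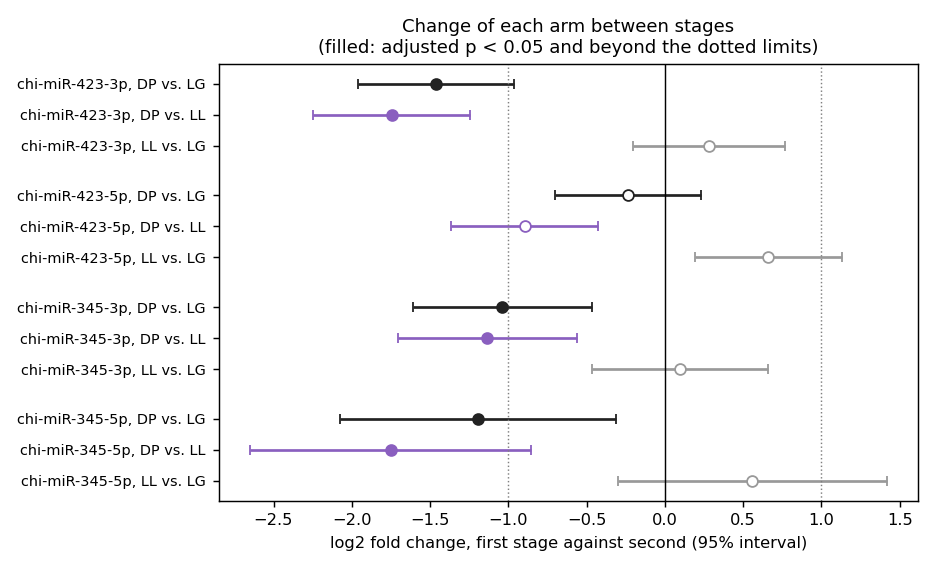
Log2 fold change of each arm in each comparison (horizontal axis, point, with its 95% interval as a bar), filled where the adjusted p was below 0.05 and the change went past the dotted limits at −1 and 1. In DP vs. LG the interval of chi-miR-423-5p (−0.70 to 0.23) includes 0, whereas those of the other arms lie below 0.

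No change in the arm ratio of miR-345 was detected. The 3p to 5p ratio was 9.04, 16.6 and 8.03 in LL, 16.2, 16.05 and 16.2 in DP, and 19.7, 16.8 and 11.1 in LG. The 3p arm was the more abundant in all 9 libraries, with stages that overlapped. The ratio differed more between goats of a stage than counting error gives, since LL replicate 2 (16.6, 95% interval 12.9 to 21.4) lay apart from LL replicate 1 (9.04, 7.31 to 11.2) and LL replicate 3 (8.03, 6.61 to 9.75). The 3 DP ratios lay much closer to each other than their own intervals are wide, 11.1 to 23.7 in DP replicate 1. The log2 change of the ratio was 0.08 in DP vs. LG (95% interval −0.64 to 0.81, edgeR adjusted p = 0.861), 0.61 in DP vs. LL (−0.14 to 1.36, adjusted p = 0.202) and −0.53 in LL vs. LG (−1.25 to 0.18, adjusted p = 0.536). Those intervals still hold changes of the ratio by 1.75-fold upward in DP vs. LG and by 2.57-fold in DP vs. LL, so a moderate change is not excluded by these libraries. In LL vs. LG and DP vs. LL the change moved with single goats, to −0.84 and 0.92 without LL replicate 2 and to −0.32 and 0.40 without LL replicate 3. Leaving out LG replicate 3 or LG replicate 1 gave −0.79 or −0.35 in LL vs. LG. The exact permutation p over the 3 stages was 0.2.

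Whether the hairpins differed from each other was tested on the log2 ratio of miR-423 minus that of miR-345 within each library, a comparison chosen after the values were seen. This difference averaged −2.56 ± 0.385 in LL, −4.0 ± 0.319 in DP and −2.70 ± 0.497 in LG (SD, n = 3). The exact permutation p (two-sided) was 0.1 for DP vs. LG and for DP vs. LL, the smallest possible, and 0.8 for LL vs. LG. Over the 3 stages it was 0.0286, which did not hold after adjustment over the 12 exact tests (0.171).

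An altered arm ratio was not particular to miR-423. In DP vs. LG 27.9% of the 129 hairpins were called, 25 with a lower and 11 with a higher 3p to 5p ratio in DP, and in DP vs. LL 24.0% were called, 21 lower and 10 higher. These shares depended on the fit and on single libraries. The 36 hairpins of DP vs. LG became 16 with limma or in a fit of these 2 stages, 22 without LL replicate 1 or LL replicate 3, and 7, 16 and 15 without LG replicates 1, 2 and 3. The 31 hairpins of DP vs. LL became 12 in the 2-stage fit and 19, 11 and 14 without LL replicates 1, 2 and 3. For LL vs. LG 0% were called by edgeR, with 19 hairpins at an unadjusted p below 0.05, 1 called by DESeq2, 0 by limma and 14 in a fit of these 2 stages. The libraries did not overlap for 41.9% of hairpins in DP vs. LG, for 41.9% in DP vs. LL, and for 27.1% between LL and LG. The median log2 change over all hairpins was −0.19, −0.32 and 0.04 in these comparisons. miR-423 stood at rank 3 by p and at rank 17 by size of change in DP vs. LG, and at ranks 15 and 49 in DP vs. LL, while miR-345 stood at ranks 122 and 121 in DP vs. LG and at ranks 65 and 66 in DP vs. LL. Among called hairpins the widest changes were those of chi-miR-545 (−2.91), chi-miR-16a (−2.42) and chi-miR-125b (−2.30) in DP vs. LG, and of chi-miR-34b (2.06), chi-miR-16a (−2.02) and chi-let-7b (−2.0) in DP vs. LL. The 3p arm of chi-miR-16a was rare, with a geometric mean ratio to its 5p arm of 0.000134 in DP. The change of chi-miR-545 in DP vs. LG had a wide SE of 0.88. The 3p arm was the more abundant in all 9 libraries in 48 hairpins, miR-345 included, the 5p arm was so in 61, and the more abundant arm differed between libraries in 20, miR-423 included.

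**Figure D4:**
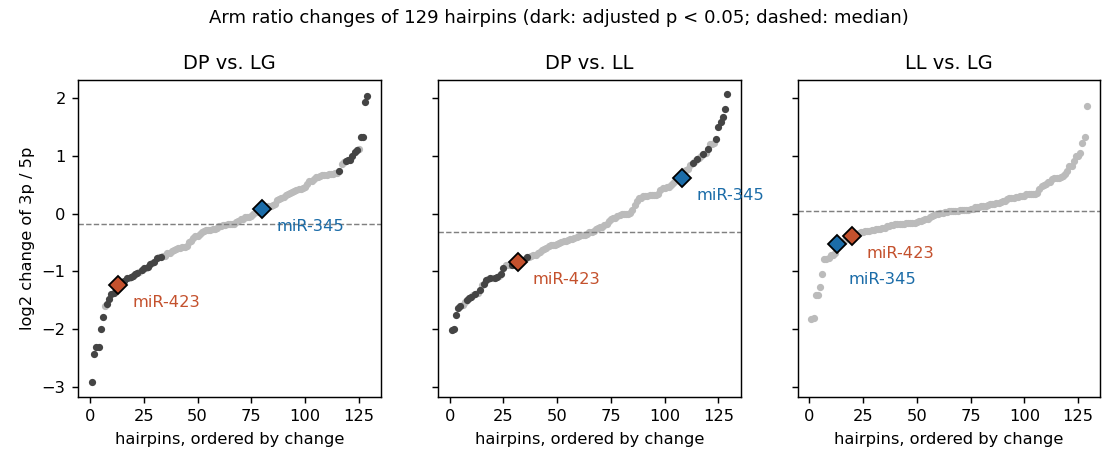
Log2 change of the 3p to 5p ratio (vertical axis) of 129 hairpins ordered by change (horizontal axis) in each comparison, dark where the adjusted p was below 0.05, with a dashed line at the median and diamonds for miR-423 and miR-345. miR-423 lies among the called hairpins in DP vs. LG (−1.24) and DP vs. LL (−0.84), and miR-345 lies among the hairpins that were not called.

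As levels depend on the scaling, the members were also set against the mean log2 count of 8 miRNAs in common use as RT-qPCR references, among them chi-miR-191-5p, chi-miR-103-3p and chi-miR-93-5p. Relative to these, chi-miR-423-3p differed by −2.17 on the log2 scale in DP vs. LG and by −2.23 in DP vs. LL. chi-miR-423-5p differed by −0.93 and −1.38, chi-miR-345-3p by −1.74 and −1.61, and chi-miR-345-5p by −1.81 and −2.21. On this scale the DP libraries of all 4 members lay below those of both other stages, chi-miR-423-5p included. The references had a median log2 change of 0.97 in DP vs. LG and 0.67 in DP vs. LL, so the scale shifts every miRNA downward in DP. The share of all tested miRNAs without overlap on this scale was not computed, so these gaps are not read as particular to the members. The references were not steady themselves, since 4 of the 8 were DE-miRNAs higher and 0 lower in DP vs. LG, and 3 were higher and 1 lower in DP vs. LL. Among all tested miRNAs 21.6% were called higher in DP vs. LG and 15.1% in DP vs. LL. By the SD of its log2 CPM over the 9 libraries, chi-miR-423-5p (0.44) ranked 106 from the steadiest of 696, against a median SD of 0.72. The SD was 0.57 for chi-miR-345-3p and 0.83 for chi-miR-345-5p and likewise for chi-miR-423-3p.

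**Figure D5:**
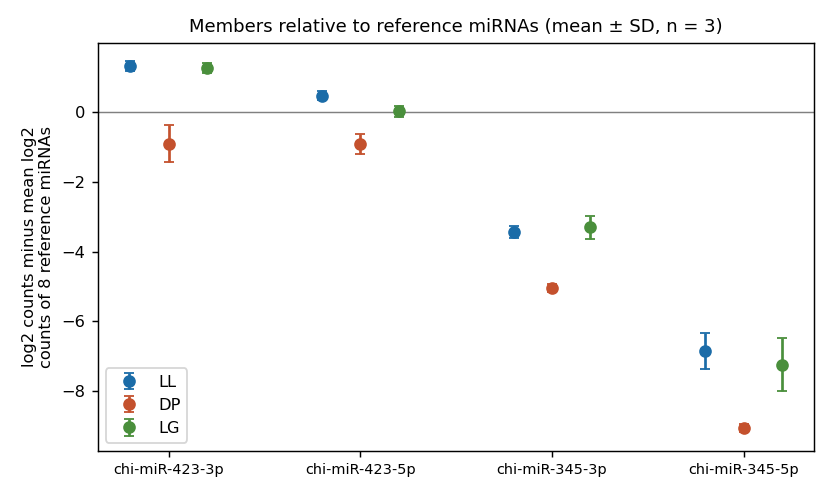
Log2 counts of each member minus the mean log2 counts of 8 reference miRNAs (vertical axis) in LL, DP and LG, as mean ± SD (n = 3). DP is the lowest stage for all 4 arms, with a gap to LG of −2.17 for chi-miR-423-3p and −0.93 for chi-miR-423-5p.

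Markers of cell types moved with the stages too, and their counts of higher miRNAs are to be read against the same 21.6% and 15.1% of all tested. Of 6 epithelial miRNAs of the miR-200 family and chi-miR-205, 5 were listed, of which 3 were DE-miRNAs lower in DP vs. LG and 5 lower in DP vs. LL, against 9.91% and 11.6% of all tested called lower. Their summed level ranged from 34895 to 42113 CPM in LL, from 13065 to 20813 CPM in DP and from 34220 to 37561 CPM in LG. The summed level of the 3 listed white blood cell miRNAs of 5 ranged from 581 to 740 CPM in LL, from 767 to 1935 CPM in DP and from 243 to 360 CPM in LG. All 3 were higher in DP vs. LG and 1 in DP vs. LL, and both arms of chi-miR-142, the defining white blood cell miRNA, were not among those listed. Of 5 stromal miRNAs, 3 were higher in each DP comparison, with sums of 77791 to 125731 CPM in LL, 47519 to 152588 CPM in DP and 57436 to 65606 CPM in LG. Among muscle miRNAs 2 of 5 were higher in DP vs. LG and 1 in DP vs. LL, with sums of 720 to 932 CPM in LL, 971 to 3445 CPM in DP and 419 to 530 CPM in LG. Of 3 listed red blood cell miRNAs 1 was higher in DP vs. LG, as was 1 of 2 endothelial miRNAs. The DP library with the ratio of miR-423 nearest to the other stages, DP replicate 3, had the lowest summed white blood cell level in DP (767 CPM), the lowest epithelial one (13065 CPM) and the highest stromal (152588 CPM) and muscle ones (3445 CPM, against 971 and 1071 CPM in the other DP libraries). Most of its stromal sum was chi-miR-143-3p (117020 CPM), which was not called in either DP comparison (log2 0.14 and −0.43). Without DP replicate 3 the ratio of miR-423 changed by −1.42 in DP vs. LG (edgeR adjusted p = 0.00191) and by −1.03 in DP vs. LL (edgeR adjusted p = 0.00863). The part of cell types in the levels or the arm ratio was not tested.

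Set against the mean log2 count of the 5 listed epithelial miRNAs, a scale chosen after the values were seen, the members were no longer uniformly lower in DP. These 5 were themselves lower in DP, with median log2 changes of −1.48 in DP vs. LG and −1.11 in DP vs. LL. The scale therefore shifts every miRNA upward in DP, and a smaller fall of the members follows from that choice. The part of the epithelium in their levels was not tested. The log2 difference of chi-miR-423-3p was −0.11 in DP vs. LG and −0.58 in DP vs. LL, and that of chi-miR-345-3p was 0.32 and 0.04, with overlapping libraries in each case. chi-miR-345-5p also overlapped, at 0.25 and −0.56. chi-miR-423-5p was higher in DP on this scale, by 1.12 in DP vs. LG and by 0.26 in DP vs. LL, without overlap. The share of all tested miRNAs without overlap on this scale was not computed. The arm ratio of miR-423 is the same on each of these scales, as both arms are divided by the same value.

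The study also predicted IGF1R as a target of 6 other miRNAs. It drew up that list by target prediction and correlation with messenger RNA levels, on these libraries and early and peak lactation ones. The direction of these miRNAs is thus not independent evidence. Of the 5 tested, 4 were lower and 0 higher in DP vs. LG, among them chi-miR-1307-3p (log2 −1.09, SE 0.24, edgeR adjusted p = 0.00526), and 4 were lower in DP vs. LL, among them chi-miR-340-5p (−1.18, SE 0.29, edgeR adjusted p = 0.0107). The shares of all tested called lower were 9.91% and 11.6%. Their median log2 fold change was −1.09 in DP vs. LG and −2.07 in DP vs. LL. Between LL and LG it was 0.85, with 1 higher, against 8.91% of all tested called higher in LL. A second list held 7 miRNAs known to repress IGF1R in other species. Of these, 4 were higher and 0 lower in DP vs. LG, namely chi-miR-99a-5p (1.79), chi-miR-100-5p (1.91), chi-miR-223-3p (2.02) and chi-miR-497-5p (1.55), and in DP vs. LL 3 were higher and 2 lower, chi-miR-7-5p (−1.52) and chi-miR-122 (−2.55), beside 21.6% and 15.1% of all tested called higher and, for DP vs. LL, 11.6% called lower. Their median was 1.55, −0.71 and 1.11 in the same order of comparisons. Between LL and LG 1 of the 7, chi-miR-223-3p (3.08), was higher.

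The known miRNAs most like each member were found by the root mean square difference of log2 levels, each centred on its own mean over the 9 libraries, among those that averaged 10 CPM or more. Nearest to chi-miR-423-3p were chi-miR-363-3p (0.28), chi-miR-20b (0.29) and chi-miR-148b-3p (0.31), whereas its own partner arm came at rank 23 of 229 (0.55). chi-miR-423-5p lay nearest to chi-miR-340-3p (0.21), chi-miR-30d-3p (0.22) and chi-let-7a-3p (0.22). For chi-miR-345-3p the nearest were chi-miR-200b (0.21) and chi-miR-200c (0.21), both on the epithelial list, and then chi-miR-1307-3p (0.26). chi-miR-345-5p lay nearest to chi-miR-20b (0.40), chi-miR-148b-3p (0.41) and its partner chi-miR-345-3p (0.42). Over the 9 libraries together the arms of miR-345 thus differed less from each other than the arms of miR-423 did, 0.42 against 0.55. That measure includes the shift between stages, and no test of that gap was made. Within LL and LG the SD of the log2 ratio was larger for miR-345 (0.56 and 0.43) than for miR-423 (0.19 and 0.08). Within DP it was smaller for miR-345 (0.008 against 0.32).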

How the data were processed

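Small RNA from the mammary gland of 9 goats (3 each in LL, DP and LG) was sequenced, 1 library per goat. The authors trimmed the reads, aligned them with miRDeep2 to goat build ARS1.2 and deposited raw read counts per known or predicted mature miRNA. The submitters' processing notes name FastQC 0.11.9, cutadapt 4.2 and Bowtie 1.1.1. In LL replicate 3 the deposited values were treated as estimated counts, as 2 predicted miRNAs held values that were not whole, and were rounded. How reads shared by similar miRNAs were split is not given in the sources used here. None of the 4 members had the same counts as another listed miRNA.

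A miRNA was tested if 3 or more libraries reached 0.5 CPM, in R 4.3.3 with edgeR 4.0.16 (TMM, quasi-likelihood, all 9 libraries, stage only). Arm ratios were tested with the same tool on paired 5p and 3p counts, with library, arm and arm-by-stage terms. Intervals of changes are 95% intervals from the fitted SE. Exact permutation tests were two-sided. Both tests were tried on simulated data. Alternatives were DESeq2 1.42.0, limma 3.58.1, other scalings, filters and pseudocounts, a replicate block, fits of 2 stages and leaving out each library. Replicates were different goats, and total counts per library, 13672653 to 34378995, set the counting precision. Named miRNAs were the members, examples from the lists, the 3 nearest patterns per member and, per comparison, the 3 called hairpins with the widest change of the arm ratio. The examples do not include every listed miRNA that passed the test, and some of them did not pass. The members and lists were chosen with earlier results of these data known. Mature sequences, shared seeds and GC content were not analysed here, although planned.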

Additional observations from a re-analysis of the deposited data

How the results depend on the processing

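The direction in DP vs. LG and DP vs. LL held for all 4 members under the 19 alternatives run for each. Alternatives changed these calls. chi-miR-345-5p in DP vs. LG was lost with limma-voom (−1.11, adjusted p = 0.0530), with the replicate block (−1.12, adjusted p = 0.0669) and in a fit of the 2 stages alone (−1.19, adjusted p = 0.0689), and leaving out 1 library gave −1.54 to −0.92. chi-miR-423-5p in DP vs. LL passed the fold limit with at least 10 counts required in every library (−1.02) and in the 2-stage fit (−1.0), missed the limit on p by library size alone (−0.52, adjusted p = 0.133) and without LL replicate 1 (adjusted p = 0.0525), and leaving out 1 library gave −1.13 to −0.82. chi-miR-345-3p in DP vs. LL was lost by library size alone (−0.78). The ratio of miR-423 in DP vs. LL was lost in the 2-stage fit (−0.84, adjusted p = 0.0697), and leaving out 1 library gave −1.03 to −0.74. The cause of these changes was not tested.

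In LL vs. LG, where no member was called, the sign turned for chi-miR-423-3p by library size alone (−0.27) and with no filter (−0.035), and leaving out 1 library gave −0.045 to 0.21. It turned for chi-miR-345-5p by library size alone (−0.076), and leaving out 1 library gave 0.16 to 0.81. chi-miR-423-5p kept its sign, at 0.09 by library size alone and 0.31 to 0.59 without 1 library. For chi-miR-345-3p it turned with DESeq2 (−0.078), upper quartile scaling (−0.039), library size alone (−0.48), DESeq2 size factors (−0.077), chi-miR-148a-3p left out (−0.12), no filter (−0.20), at least 10 counts (−0.14) and the 2-stage fit (−0.11), and leaving out 1 library gave −0.17 to 0.13. The ratio of miR-345 in DP vs. LG turned with a pseudocount of 5 (−0.052), and leaving out 1 library gave −0.18 to 0.26, with 0.40 to 0.92 in DP vs. LL and −0.84 to −0.32 in LL vs. LG.

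Hairpins with a changed ratio in DP vs. LG, 36, numbered 16 with limma and 16 in the 2-stage fit, and 7 to 39 without 1 library. In DP vs. LL, 31, they numbered 12 in the 2-stage fit and 11 to 39 without 1 library. In LL vs. LG, 0, they numbered 1 with DESeq2, 1 with at least 10 counts, 1 with the replicate block, 14 in the 2-stage fit and 0 to 4 without 1 library. DE-miRNAs in LL vs. LG, 89, numbered 141 in the 2-stage fit and 33 to 125 without 1 library.

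Same-numbered libraries of different stages were not taken as paired, as the correlation of their deviations ran from −0.10 to 0.21 in 9 pairs and was over 0.1 in 3 of them. A library correlated best with its own number in 12 of 18 cases, which is at most a hint of pairing, from the data and not from the design. Those cases were not independent, as each pair of libraries enters from both sides, and pairing was not tested. Each library came from a different goat. With the replicate block DE-miRNAs numbered 222, 170 and 88 in DP vs. LG, DP vs. LL and LL vs. LG, against 219, 186 and 89. chi-miR-345-5p had few counts, 28 to 43 in DP, while the log2 ratio of miR-345 varied more in LL (SD 0.56) and LG (SD 0.43) than in DP, and how much each adds to the interval was not tested. GC content and shared seeds, planned as descriptions, were not run.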
